A study of Rattus norvegicus with 4 samples.

Results

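Neurotrophins are secreted growth factors that act on neural cells through Trk receptor tyrosine kinases, through the low-affinity receptor p75 and, as uncleaved precursors, through a complex of p75 with the sorting receptor sortilin. The genes examined were the ligands Bdnf and Ntf3, the Trk receptors Ntrk2 and Ntrk3, the p75 gene Ngfr and the sortilin gene Sort1. They were found by their gene symbols, and all 6 were among the 17327 symbols of the deposited counts. In the oligodendroglial lineage, signalling through TrkB and through the neurotrophin 3 receptor TrkC is known to support the survival and proliferation of precursor cells. The members were chosen from a comparison of control and Sox10-deficient cells whose measured values were already known. Their differences are therefore given as descriptions, without p-values.

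RNA came from OLN93 cells, a rat line of the oligodendroglial lineage that became immortal spontaneously and was grown in DMEM with fetal calf serum. The control group held 2 libraries of Sox10-positive cells, which the labels name biological replicates and the paper names clones. The Sox10-deficient group held 2 libraries, from clones A and B, in which Sox10 had been inactivated with CRISPR/Cas9 and different guide RNAs. By order of number, the library labelled 1 is called clone A here and the library labelled 2 clone B. Each of these libraries stands for a single clone, so that the loss of Sox10 and other changes of a clone cannot be told apart. Library totals of the deposited counts lay between 60951 and 104017. These totals are a very small part of the reads per library that the paper names, and the cause was not tested. Genes without deposited counts, or with few, need not be absent from the cells. The numbers of tested and called genes given below hold for this depth only. A level of 3 counts served as the floor of detection. This floor stood for 29.1 to 48.0 counts per 1e+06 scaled counts (normalized CPM), depending on the library.

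Sox10 itself was counted 28 and 64 times in control cells, 0 times in clone A and 14 times in clone B. The remaining reads in clone B amounted to 159 CPM, against 448 and 620 CPM in the controls. Read counts do not show whether a transcript codes for working protein, and the paper describes both clones as edited to inactivate Sox10. Of the 12 oligodendroglial marker genes, 11 had counts, with Mag at 0 in every library. Their summed level was 2622 and 2152 CPM in control cells against 1951 and 1608 CPM in the clones. Its largest part in the controls was Cnp, an enzyme of myelin, with 991 and 659 CPM against 407 and 226 CPM, whereas the precursor marker Cspg4 went the other way, with 256 and 301 CPM against 674 and 408 CPM. Of 6 astrocyte markers 4 were at 0 in every library, among them Aqp4, and so were 4 of 6 neuronal markers, among them Rbfox3, 4 of 6 markers of fibroblasts and pericytes, and 4 of 6 markers of microglia and endothelium. The neuronal markers summed to 128 and 174 CPM in control cells against 105 and 45.3 CPM in the clones, and the astrocyte markers did not exceed 45.3 CPM in any library. The markers of fibroblasts and pericytes summed to 368 and 397 CPM in control cells against 325 and 136 CPM in clones A and B, and those of microglia and endothelium to 63.9 and 136 CPM against 58.1 and 45.3 CPM. This last sum came from Csf1r, apart from 1 count of Aif1 in control 2. The neuronal sum came from Map2, apart from 1 count of Snap25 in control 2 and 1 in clone A. Most of the sum for fibroblasts and pericytes was Col1a1, with 336 and 330 CPM in control cells against 290 and 136 CPM in clones A and B, and the rest was Pdgfrb.

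The p75 receptor binds all neurotrophins with low affinity and is best known in the glial field from Schwann cells and their neural crest precursors. Its gene Ngfr (ENSRNOG00000005392) had 37 counts in control 1, 62 counts in control 2 and 0 counts in clones A and B. In normalized CPM, the controls had 591 and 601, a mean of 596 ± 6.75 (SD, n = 2). Both controls thus lay at the same level within counting error, as the exact Poisson intervals of 416 to 815 CPM and 461 to 770 CPM overlapped over most of their length, and both clones lay at the bottom of the scale. Taken against the floor, the clones had at least 17.3-fold lower Ngfr than the controls, which leaves at most 5.77% of the control level. The limit was nearly the same from either control alone, with 17.2-fold from control 1 and 17.5-fold from control 2. In clone A the 0 counts of Ngfr stood beside 0 counts of Sox10, whereas in clone B they stood beside 14 counts of Sox10. In these bulk libraries, fewer cells with Ngfr transcripts and fewer transcripts per cell cannot be told apart.

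TrkB, the product of Ntrk2, is the receptor with high affinity for brain-derived neurotrophic factor and neurotrophin 4. Ntrk2 (ENSRNOG00000018839) was counted 34 and 33 times in control cells, 8 times in clone A and 10 times in clone B. These counts corresponded to 544 and 320 CPM in control cells against 92.9 and 113 CPM in the clones. Each clone lay below each control, but the controls differed from each other more than the clones did. The mean level was 432 ± 158 CPM in the controls and 103 ± 14.4 CPM in the clones (SD, n = 2 each), so that the clones retained 23.9% of the control mean. The fitted log2 fold change was -2.02 with a standard error of 0.45. Unlike Ngfr, Ntrk2 thus remained above the floor of detection in both clones. Clone A had 82.1% of the Ntrk2 level of clone B, with an exact 95% interval of 28.1 to 231% that covers counting error only, and no difference between the clones was detectable at this depth. The counts were made per gene symbol, so that full-length TrkB and the truncated forms without kinase domain, which glial cells also make, are not separated. In the GRCr8 annotation Ntrk2 overlaps 7 long non-coding genes without rows of their own in the deposited counts. The libraries were made with a stranded mRNA kit, but whether the counting used the strand is not given in the sources used here, and the part of these genes in the Ntrk2 counts was not tested.

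Sortilin carries proteins between Golgi, endosomes and cell surface and binds the pro-domain of neurotrophin precursors. Sort1 (ENSRNOG00000031814) was counted 8 and 10 times in control cells, 2 times in clone A and 5 times in clone B, too few to enter the test over all genes. In normalized CPM, the controls had 128 and 96.9, and the clones had 23.2 and 56.6. The clones lay below both controls, but the value of clone A was under the floor of 34.8 CPM for that library. The mean was 112 ± 21.9 CPM in the controls and 39.9 ± 23.6 CPM in the clones (SD, n = 2 each). Summed over libraries, 7 counts in the clones against 18 in the controls gave a ratio of 37.0%, with an exact 95% interval of 13.0 to 92.7% that covers counting error only. A fit without the filter, which takes the spread between libraries into account, gave a log2 fold change of -1.41 with a standard error of 0.84, and Sort1 was not called in it or in the other settings that tested it, which left out control 2, clone A or clone B. The log2 ratio of the means was -1.49, and it was -0.99 with clone B alone and -2.27 with clone A alone.

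**Figure D1:**
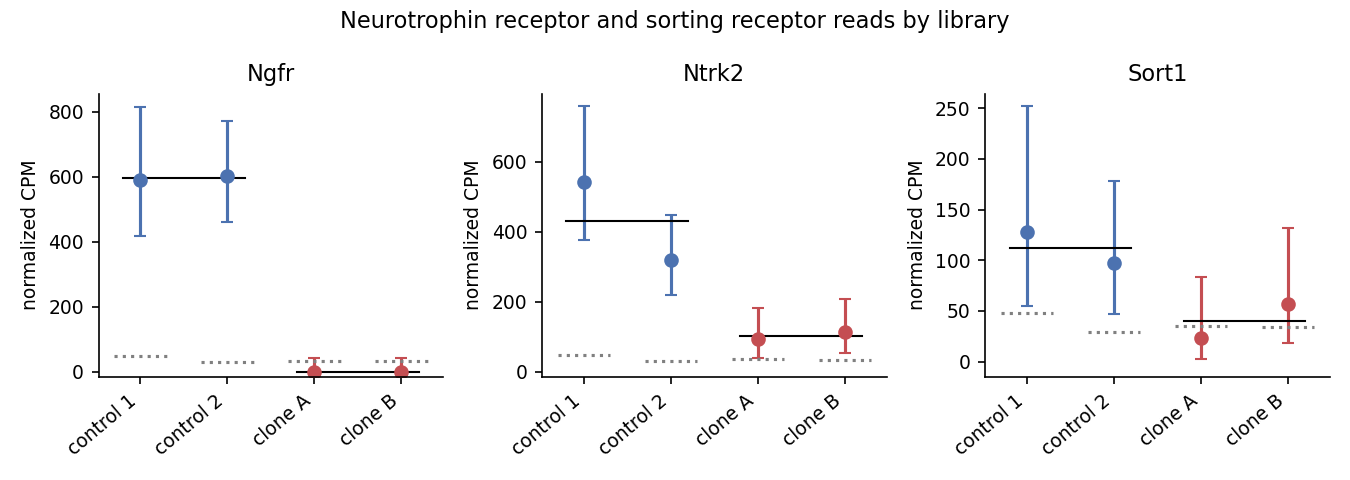
Normalized CPM of Ngfr, Ntrk2 and Sort1 (vertical axes, separate scales) in each of the 4 libraries (horizontal axis). Points are libraries with exact 95% Poisson intervals of their counts, black lines are group means and dotted lines are the level of 3 counts. Ngfr lies at 591 and 601 CPM in the controls and at 0 in both clones, while Ntrk2 and, with wide intervals, Sort1 keep part of their level.

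The ligands and the remaining Trk receptor had no counts. Bdnf (ENSRNOG00000047466), which codes for the main ligand of TrkB, Ntf3 (ENSRNOG00000019716), which codes for neurotrophin 3, and Ntrk3 (ENSRNOG00000018674), which codes for the neurotrophin 3 receptor TrkC, were at 0 in all 4 libraries. Over the 4 libraries together, a count of 0 allows a level of up to 8.82 CPM, so that a difference between the groups was not detectable for these 3 genes. A further column of the deposited table holds a mean of normalized counts over the libraries and rests on deeper counts, but it does not separate the groups. In this column of authors' means, Ngfr is listed with 6467, Ntrk2 with 2050 and Sort1 with 1263, whereas Bdnf is listed with 12, Ntrk3 with 3 and Ntf3 with 0. Of the marker genes, Mog, Olig2 and Aif1 had deposited counts although they are listed with 0, and the cause of such differences was not tested. Values of different genes are not corrected for transcript length and show here only where reads were present at all. For genes with a mean of at least 500 in that column, the median gene had a deposited count per library of 0.385% of this mean. At this share, the mean listed for Bdnf corresponds to 0.0462 deposited counts per library, so that the 0 counts of Bdnf lie where its listed mean would place them. Ngfr had 0.994 times and Sort1 1.29 times the median share, but Ntrk2 had 2.69 times as many deposited counts as its listed mean would give. Among the marker genes, Csf1r had 130 times, Gpr17 26.0 times, Olig1 5.52 times and Nkx2-2 5.05 times the median share. Cnp had 1.07 times and Cspg4 0.901 times this share. The marker sums thus partly hold counts that the listed means would not give, and the cause was not tested.

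**Figure D2:**
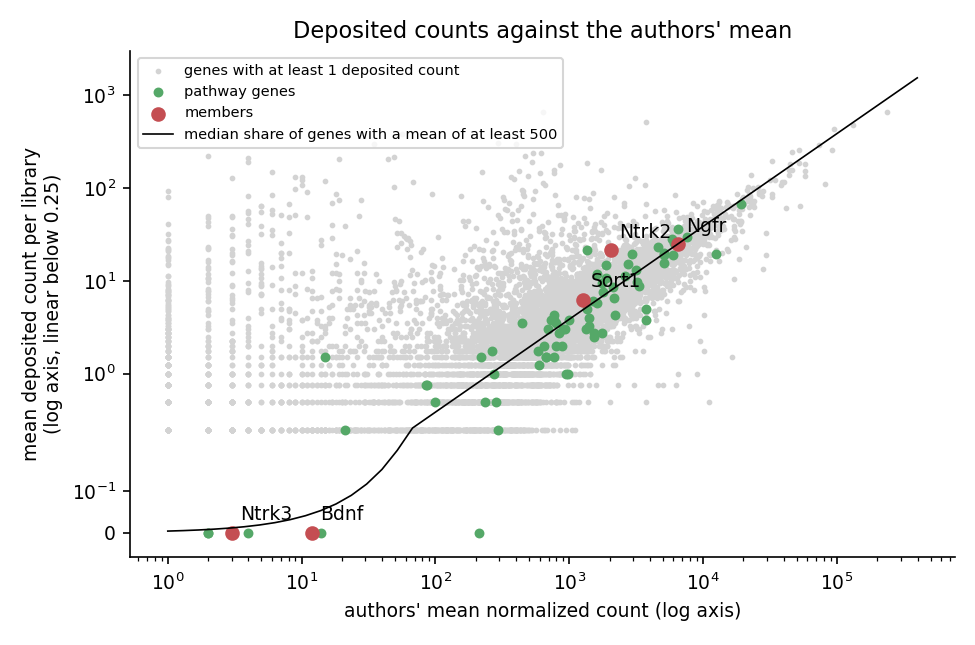
Mean deposited count per library (vertical axis, log scale, linear below 0.25) against the authors' mean normalized count (horizontal axis, log scale). Grey points are genes with at least 1 deposited count, green points pathway genes, red points members with a listed mean above 0, and the line is the median share of 0.385%. Bdnf and Ntrk3 lie at 0 deposited counts, and Ntrk2 lies above the line.

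RefSeq promoter windows of the assembly GRCr8, a later build than the rn5 of the counts, were at hand for 3 of the 6 members, Sort1, Bdnf and Ntf3. No windows were in the table for Ngfr, Ntrk2 and Ntrk3. The 250 bases before each start were searched on both strands for ACAAAG and ACAATG, the core hexamers that Sox proteins recognise. Of 33469 windows, 16.3% held ACAAAG, 11.1% held ACAATG and 25.3% held at least 1 of them. The windows of the members are given because Sox10 was the factor removed. Sort1 is the only member with both reads and a window, at chr2:198612245-198612494 on the plus strand, with a G and C content of 71.6% and neither hexamer.
Sort1: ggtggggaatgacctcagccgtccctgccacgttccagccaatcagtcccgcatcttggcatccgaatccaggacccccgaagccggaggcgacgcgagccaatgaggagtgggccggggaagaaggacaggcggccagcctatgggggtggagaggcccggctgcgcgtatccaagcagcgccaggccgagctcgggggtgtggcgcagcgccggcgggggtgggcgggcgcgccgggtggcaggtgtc
The 6 windows of Bdnf held 1 match, ACAAAG in capitals on the gene's strand, at chr3:116637608-116637857 on the plus strand.
Bdnf: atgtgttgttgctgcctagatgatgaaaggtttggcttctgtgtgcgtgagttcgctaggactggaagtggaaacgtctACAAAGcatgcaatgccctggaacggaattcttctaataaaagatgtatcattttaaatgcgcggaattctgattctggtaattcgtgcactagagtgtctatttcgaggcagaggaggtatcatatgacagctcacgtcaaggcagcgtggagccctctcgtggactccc
The 3 windows of Ntf3 held neither hexamer. A match of 6 bases is not a binding site, and its absence says only that these letters are not in the window.

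To place the members among all genes, the counts were compared between clones and controls by edgeR's quasi-likelihood test over the 2438 genes with enough counts. A gene was called when it changed at least 2-fold with a Benjamini-Hochberg adjusted p of 0.05 or less. Of the 6 members, 2 passed the filter on low counts, Ngfr and Ntrk2, and both were called lower, where 2.50% of all tested genes were called lower and 1.11% higher. With an unadjusted p, both were called as well, where 6.97% of all tested genes were lower and 4.63% higher. Both passed the filter through the controls, where they were high, and the group was put together with this comparison known. Calls in this direction were thus largely fixed by the choice, and these counts support nothing. Without control 2, neither was called. The call of Ntrk2 was also lost with DESeq2, at a log2 fold change of -2.05 without a prior and -1.53 with one, without control 1, at -1.64, and without clone A, at -1.87. Without control 2, its value was -2.41. Both clones lay below both controls for 3 members, all 3 that had at least 15 counts in sum, and the same held for 19.9% of the 4775 genes with such a sum.

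**Figure D3:**
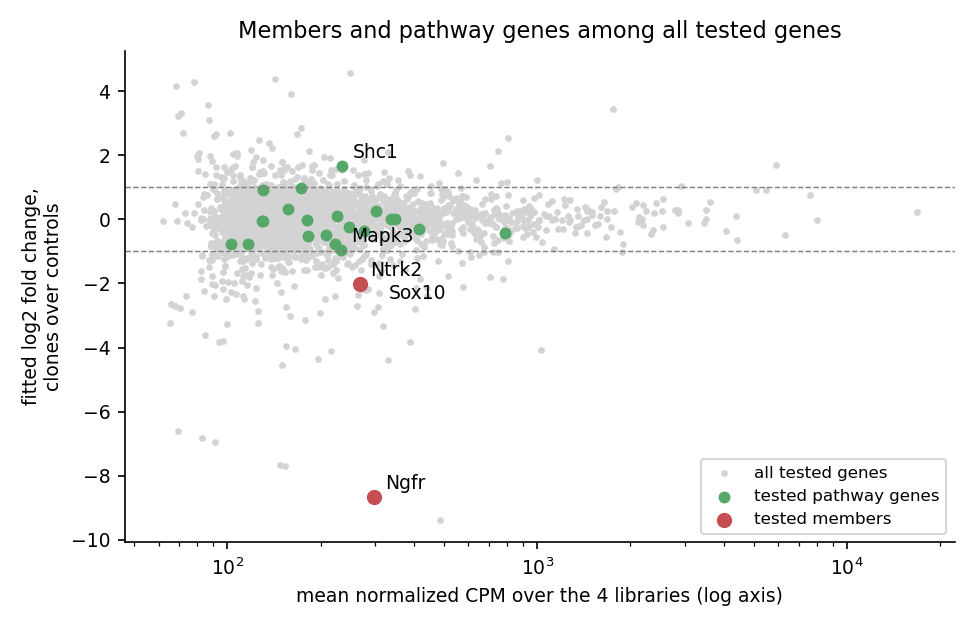
Fitted log2 fold change of clones over controls (vertical axis) against mean normalized CPM over the 4 libraries (horizontal axis, log scale) for all tested genes in grey, tested pathway genes in green and the tested members in red. Dashed lines mark 2-fold changes, and the fitted value of Ngfr, with 0 counts in both clones, depends on the prior count and is no measure of size. Ngfr and Ntrk2 lie below the dashed lines, and among the pathway genes Shc1 lies above them.

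The genes whose profile over the 4 libraries was nearest to that of each tested member were then listed, using the Euclidean distance between centred values of log2(CPM + 10). These distances rest on 4 libraries and are descriptions. Nearest to Ngfr were Gas7 at a distance of 0.705, Slc35f1 at 1.01 and Calcb at 1.10. Gas7 codes for an F-BAR domain protein that binds actin, Slc35f1 for a protein of a solute carrier family and Calcb for a calcitonin-related peptide. All of them had 0 counts in both clones. Their counts in controls 1 and 2 were 56 and 108 for Gas7, 20 and 28 for Slc35f1, and 24 and 24 for Calcb. Nearest to Ntrk2 were Sh3kbp1, which codes for an adaptor in receptor endocytosis, at a distance of 0.350, Adamts9, which codes for a secreted metalloprotease, at 0.374, and Hmgcs1, which codes for an enzyme of sterol synthesis, at 0.401. Like Ntrk2, these genes kept counts in both clones, with 7 and 10 for Sh3kbp1, 7 and 10 for Adamts9, and 10 and 13 for Hmgcs1. Their counts in the controls were 33 and 41, 31 and 41, and 31 and 33. These genes were selected for this profile, so that their likeness to the members in the clones was fixed by the selection.

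**Figure D4:**
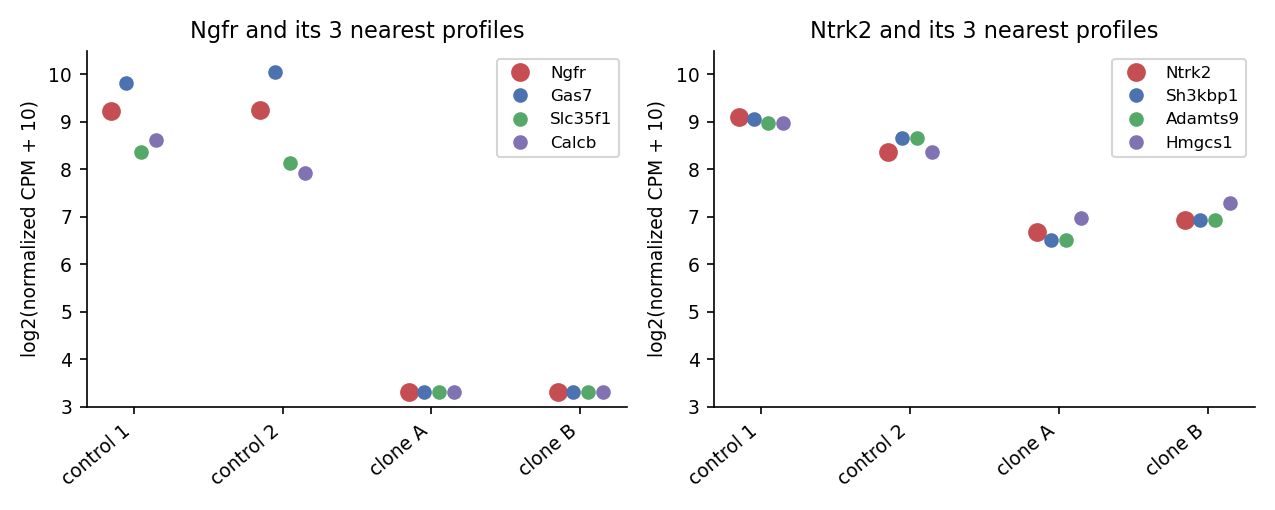
Log2(normalized CPM + 10) in each library (horizontal axis) for Ngfr (left) and Ntrk2 (right), in red, with the 3 tested genes of nearest profile. Ngfr, Gas7, Slc35f1 and Calcb lie at the value of 0 counts in both clones, while Ntrk2, Sh3kbp1, Adamts9 and Hmgcs1 lie between their control levels and that value.

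Markers of Schwann cells and neural crest, the cells in which p75 is abundant, were examined beside Ngfr. Of 9 markers, 8 had a row and 4 of these had counts, and Cdh19, Ednrb, Gap43 and L1cam were at 0 in every library. The summed level of the list was 639 and 649 CPM in control cells against 256 and 204 CPM in the clones. S100b, a calcium-binding protein found in glia in general, was counted 26 and 22 times in control cells, 2 times in clone A and 1 time in clone B. Prx, a protein of peripheral myelin, had 5 and 2 control counts and none in either clone. Tfap2a, a transcription factor of neural crest, had 7 and 32 control counts against 20 and 17 in clones A and B, so that it did not separate the groups. The part of these genes, or of cells that express them, in the difference of Ngfr was not tested.

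The other genes of the pathway were taken from a list of 87, ordered by role, of which 85 had a row in the deposited counts and 72 had at least 1 count. Only 21 had enough counts to be tested. None of them was called lower or higher by the adjusted p from edgeR, and DESeq2 called none either. By edgeR, 2.50% of all tested genes were called lower and 1.11% higher. In counts simulated at the depth of these libraries, edgeR called 11.5% of genes changed 2-fold and 75.9% of those changed 4-fold. Changes of the pathway genes near 2-fold could thus be missed. With an unadjusted p of 0.05 or less, 1 of the 21 pathway genes was lower and 1 was higher, namely Mapk3 and Shc1. Of these, Shc1 differed by 2-fold or more. By the same p alone, 200 of all 2438 tested genes were lower and 159 were higher. In the median, the 21 genes had a log2 fold change of -0.06 and all tested genes one of -0.01. Of 37 pathway genes with at least 15 counts in sum, both clones lay below both controls for 8 and above both for 6, where the same held for 19.9% and 20.8% of the 4775 genes.

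Outside the group, Ntf4, which codes for neurotrophin 4, the other ligand of TrkB, was at 0 in all libraries. Among the relatives of sortilin, Sorl1, Sorcs1 and Sorcs3 were at 0 as well, and Sorcs2 had 9 and 12 control counts against 8 and 5 in clones A and B, a log2 fold change of -0.78 with a standard error of 0.70. Lingo1 and Rtn4r, co-receptors of p75 in the receptor complex for myelin inhibitors, were at 0 in every library, and so was Tnfrsf19, listed beside them. In the column of authors' means, Tnfrsf19 is nevertheless listed with 211, Lingo1 with 4 and Rtn4r with 0. The paper names Tnfrsf19 among its candidate target genes of Sox10 in precursor cells, which were drawn from genes lower in Sox10-deficient OLN93 cells. With 0 deposited counts, such a difference of Tnfrsf19 was not detectable here.

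Of the 10 genes for p75 adaptors and effectors, 8 had counts and 3 were tested. Arhgdia, a GDP dissociation inhibitor that p75 contacts, had 943 and 863 CPM in control cells against 674 and 679 CPM in the clones. Its clones lay below its controls, but the log2 fold change of -0.42 with a standard error of 0.27 did not pass the threshold (adjusted p = 0.533 from edgeR). Maged1, an adaptor of p75 in cell death signalling, had 352 and 339 CPM in control cells against 383 and 317 CPM in the clones, with overlapping groups. Among the proteases that cut p75 or neurotrophin precursors, Adam17, which sheds the p75 ectodomain, had a fitted log2 fold change of -0.02 with a standard error of 0.48. Ncstn, a subunit of gamma-secretase, had 79.9 and 96.9 CPM in control cells against 151 and 193 CPM in the clones, a log2 fold change of 0.92 with a standard error of 0.58 (adjusted p = 0.521 from edgeR).

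Among the adaptors of activated Trk receptors, Shc1 was the gene that met the unadjusted rule. It codes for the adaptor that docks to the phosphorylated receptor and leads to Ras, and it was counted 9 times in each control, 24 times in clone A and 38 times in clone B. In normalized CPM, these were 144 and 87.2 in control cells against 279 and 430 in clones A and B. Both clones lay above both controls, and the log2 fold change was 1.66 with a standard error of 0.46. The adjusted p of 0.0549 from edgeR's quasi-likelihood test missed the threshold, and it ranged from 0.0199 to 0.539 over the alternatives that were tried. Kidins220, a scaffold protein of Trk receptors and p75, had 320 and 301 CPM in control cells against 232 and 249 CPM in the clones, a log2 fold change of -0.36 with a standard error of 0.38.

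In the branches below the receptors, Mapk3, which codes for the kinase Erk1, had 368 and 252 CPM in control cells against 174 and 136 CPM in the clones. Its log2 fold change was -0.97 with a standard error of 0.43 (adjusted p = 0.299 from edgeR). Plcg1, which codes for phospholipase C-gamma, had 240 and 320 CPM in control cells against 186 and 147 CPM in the clones, with a log2 fold change of -0.77 and a standard error of 0.42. For Itpr3, a calcium channel of the endoplasmic reticulum, this value was -0.29 (standard error 0.35). For the kinase gene Akt1 it was -0.53 (standard error 0.48), and Akt2 was not tested, with 4 and 11 control counts against 13 and 10 in clones A and B. Of the genes that respond to neurotrophins in neurons, Fosl1 and Dusp6 had the highest CPM, which are not corrected for length, and their log2 fold changes were 0.01 for Fosl1 (standard error 0.35) and 0.27 for Dusp6 (standard error 0.38).

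**Figure D5:**
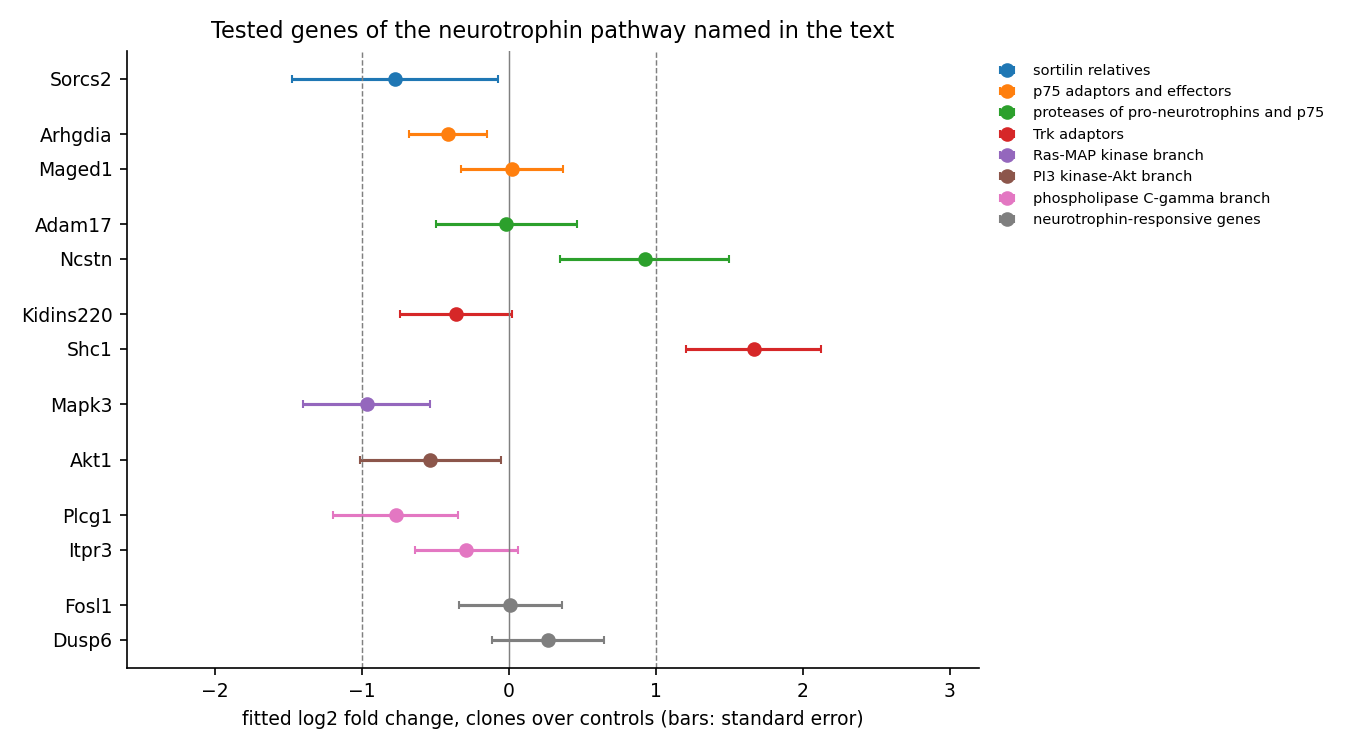
Fitted log2 fold change of clones over controls (horizontal axis) with its standard error for the 13 tested pathway genes named in the text, ordered and coloured by role, with dashed lines at 2-fold. Shc1 at 1.66 lies above 2-fold, while the other genes lie between -0.97 and 0.92.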

How the data were processed

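RNA-Seq counts of 4 OLN93 libraries were used. Per the labels and the study's methods, the authors aligned the sequences with STAR 2.5.1 to the rn5 build of the rat and deposited HTSeq counts of unique mappings per gene symbol, without normalization. The study's methods name a stranded mRNA kit and Ensembl gene identifiers for the counting. The strand option, and how the symbols of the deposited counts were assigned, are not given in the sources used here. The authors' table of their DESeq2 comparison holds fold changes and p-values, which were not used, and a mean of normalized counts in whole numbers, handled as a score. This deposited score was printed only as the authors' mean. The members and gene lists were chosen with earlier results of these data known.

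Clones and controls were compared with edgeR 4.0.16 under R 4.3.3, using filterByExpr, TMM scaling, glmQLFit and glmQLFTest, a model of condition alone and Benjamini-Hochberg adjustment over 2438 genes. Standard errors were derived from the F statistic. The test was first checked on simulated counts. Libraries are taken as separate samples, as labelled, and replicates differed by more than counting noise (2.08 and 2.02 times per gene). P-values measure only the spread between these libraries. CPM use TMM-scaled totals, and floors and intervals cover counting error only.

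Named genes are the members, Sox10, pathway genes called by either rule, the 2 pathway genes of highest mean CPM in each role, and the 3 nearest profiles per tested member. Some genes that this rule names are not reported here. Marker genes, Tnfrsf19, Sorcs1 and Sorcs3 were named after their values were seen. Bex3 was found under its older symbol Ngfrap1. As alternatives, DESeq2 1.42.0 was run without and with a prior, and other scalings, filters, floors and prior counts were used, as well as a replicate block and leaving out each library. Figures and promoter windows were made in Python 3.11.15.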

Additional observations from a re-analysis of the deposited data

How the results depend on the processing

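With 2 libraries a group and deposited totals of at most 104017 counts, differences in genes with few counts were not detectable. The members called lower numbered 2 with DESeq2's size factors, with library totals alone and without the filter, as in the values reported above, 1 with DESeq2 and 0 to 2 when each library was left out. At least 10 counts in every library left neither to be tested, since both had fewer in clone A. The log2 fold change of Ntrk2 stayed negative throughout. Its call was lost with DESeq2 without a prior, at -2.05, and with a prior, at -1.53, and leaving out each library gave values of -2.41 to -1.64. The limit for Ngfr was 17.6-fold with library totals alone, 52.0-fold with a floor of 1 count, and 17.1-fold to 17.5-fold when each library was left out. The log2 ratio of Sort1 ranged from -2.27 to -0.99 in the same way. Of the 3 genes nearest to Ntrk2, 2 were shared with a pseudocount of 1 and 3 with one of 50, and of those nearest to Ngfr 3 and 2. The cause was not tested for any of these.

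Lower genes in all numbered 28 and higher genes 8 with DESeq2 without a prior, 30 and 8 with a prior, 8 and 9 with at least 10 counts in every library, 170 and 113 with an unadjusted p, and 0 to 70 and 0 to 39 when each library was left out. Without the filter 44 were higher. The counts of 0 came without control 2, where edgeR gave 146 lower and 144 higher genes at an unadjusted p of 0.05 or less. Of the pathway genes, 1 was higher, namely Shc1, with library totals alone, without the filter and with an unadjusted p, and 0 to 1 when each library was left out.

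The replicate numbers of the labels are shared between the groups but mark no stated batch. With the replicate block, 28 genes were lower and 11 higher, 1 member was called, and the log2 fold change of Ntrk2 was -2.01, no longer called. Deviations of libraries with the same number correlated at 0.12 over the tested genes.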
